A study of Mus musculus with 9 samples.

Results

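The cytosolic ribosomal protein genes encode the protein parts of the ribosome outside mitochondria, and they were taken by name: symbols that begin with Rpl or Rps followed by a number, the stalk genes Rplp0, Rplp1 and Rplp2, and Rpsa. The rule found 82 genes among the 12849 genes of the deposited log2 CPM table, and 89 names among the 55536 genes of the deposited count table. The 82 comprised 31 genes of the small subunit, 42 of the large subunit, 3 of the stalk, 3 paralogs (Rpl22l1, Rpl7l1 and Rps27l) and 3 genes that GENCODE M21 annotates as processed pseudogenes (Rps4l, Rpl6l and Rps3a2). They lay on 19 chromosomes, and 4 of them on chromosome X. The choice used no measured difference between genotypes, but the members had to pass the filter on low counts that made the log2 CPM table.

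The series compares mouse spleen B cells of 2 genotypes. Of the 9 RNA-seq libraries, 5 were labelled p52Ki, whose titles give a homozygous p52 knock-in (p52ki/ki; p52 is the DNA-binding subunit that Nfkb2 encodes), and 4 were labelled WT. The labels call the cells pre-GC, a stage before the germinal centre, the structure in which activated B cells expand and their antibodies mature. Neither the construct, the sort, any immunisation nor the age of the mice was stated in the labels. Nor do the labels tie each library to its own mouse, so the p-values reflect the variation among these libraries, some of which may be technical.

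Each ribosome holds about equal numbers of its proteins, and cells keep the mRNAs of these proteins in step with growth. Most of these mRNAs start with an unbroken run of pyrimidines (C or T), the 5′ terminal oligopyrimidine tract, through which mTOR and the RNA-binding protein LARP1 set their translation. In B cells, activation is known to raise ribosome production and protein synthesis together.

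The letters around the start site carry both features that bear on this series: the pyrimidine run, and the binding letters of the protein families named in the series title, which pairs p52, of the NF-κB family, with ETS1, of the ETS family. The RefSeq promoter table (build GRCm38.p6), which spans 250 bases before to 50 after the annotated start, held 59 of the 82 genes. Where a gene had several promoter windows, only the first listed was searched. The run was at least 8 C or T letters, opening with C within 25 bases to either side of the start on the gene's strand. It stood in 34 of the 59 (57.6%), against 16.2% of 17492 protein-coding promoters. Such a run can lie outside the annotated mRNA, as in Rpl4, where it opens at -17 and ends before the start. The 34 are therefore not a count of mRNAs known to begin with the tract. Windows of 30 bases to each side of the start are shown for the gene that changed between genotypes (Rpl4), for a gene of the highest level per length (Rps6), for a short gene with a large spread between libraries (Rps27), and for a paralog pair of which Rpl22l1 has the run and Rpl22 has none of this length. Capitals mark the run.
Rpl4, chr9:64173357-64173416, plus strand: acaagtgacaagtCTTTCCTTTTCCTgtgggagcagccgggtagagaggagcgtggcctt
Rps6, chr4:86857338-86857397, minus strand: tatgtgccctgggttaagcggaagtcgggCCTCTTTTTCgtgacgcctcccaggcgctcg
Rps27, chr3:90213619-90213678, minus strand: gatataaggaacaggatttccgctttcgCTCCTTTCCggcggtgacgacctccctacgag
Rpl22l1, chr3:28805478-28805537, plus strand: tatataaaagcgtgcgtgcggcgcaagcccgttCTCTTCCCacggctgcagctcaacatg
Rpl22, chr4:152325696-152325755, plus strand: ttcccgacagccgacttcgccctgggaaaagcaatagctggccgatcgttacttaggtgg

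The ETS letters CCGGAAG, searched on both strands of the 300-base windows, stood in 24 of the 59 promoters (40.7%), against 11.9% of the 17492 protein-coding promoters. 3 stretches with this match are shown, for Rps6 of the small subunit, for Rpl38, and for Rps26, with the ETS letters in capitals.
Rps6, chr4:86857427-86857483, minus strand: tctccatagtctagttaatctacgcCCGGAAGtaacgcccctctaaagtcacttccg
Rpl38, chr11:114668535-114668591, plus strand: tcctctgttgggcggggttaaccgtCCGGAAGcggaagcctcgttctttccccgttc
Rps26, chr10:128626689-128626745, minus strand: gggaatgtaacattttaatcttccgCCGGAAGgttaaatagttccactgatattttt

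The general NF-κB consensus, searched on both strands, stood in 4 of the 59 promoters (6.78%), those of Rpl23, Rpl6, Rps19 and Rps23, against 8.86% of the protein-coding promoters. The match in Rpl6 is shown in capitals, since Rpl6 had the highest level of the 4. None of these matches is a measured binding site.
Rpl6, chr5:121204380-121204439, plus strand: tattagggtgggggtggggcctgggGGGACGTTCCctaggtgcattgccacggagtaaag

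Libraries held 4492160 to 6647650 counts in p52Ki and 7368604 to 7937579 counts in WT, with 15504 to 16634 and 14033 to 14793 genes detected. Nfkb2, the gene that encodes p52, averaged 208 ± 40.9 CPM in p52Ki and 136 ± 34.0 CPM in WT (SD, n = 5 and 4). Its log2 fold change was 0.61 ± 0.21 SE (edgeR adjusted p = 0.0987). The 8 B cell markers summed to between 11650 and 15051 CPM in p52Ki and between 10117 and 11397 CPM in WT, and none of them was at 0 throughout. Markers of germinal centre B cells summed to 406 to 1107 CPM in p52Ki and 1946 to 2636 CPM in WT, and 4 of 6 fell (edgeR). Myeloid markers summed to 70.2 to 174 CPM in p52Ki and 18.4 to 118 CPM in WT (0 of 5 tested called). Stromal markers summed to 114 to 265 CPM in p52Ki and 39.2 to 107 CPM in WT. That sum was nearly all Pecam1, which rose (183 ± 54.6 CPM in p52Ki and 71.4 ± 33.2 CPM in WT, edgeR adjusted p = 0.0256), while the collagen genes Col1a1 and Col3a1 were at 0 in every library. Without p52Ki replicate 5 Pecam1 was not called (edgeR, log2 fold change 1.21). Summed T cell markers reached at most 23.7 and 17.98 CPM in p52Ki and WT. Plasma cell markers summed to 722 to 1321 CPM in p52Ki and 1505 to 1969 CPM in WT, a difference carried by Jchain, which fell (562 ± 202 CPM in p52Ki and 1252 ± 194 CPM in WT, edgeR adjusted p = 0.0116). Sdc1, a surface marker of plasma cells, averaged 22.0 ± 11.5 CPM in p52Ki and 1.21 ± 2.42 CPM in WT and did not pass (edgeR adjusted p = 0.0762). Immunoglobulin and T cell receptor genes took 3.49 to 4.51% of counts in p52Ki and 2.26 to 2.81% in WT. In such bulk libraries fewer cells of a type and less RNA per cell cannot be told apart.

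As a whole, the ribosomal protein genes took shares of the counts that overlapped between genotypes. Their share of all counts was 1.66, 2.34, 1.67, 2.11 and 3.58% in p52Ki replicates 1 to 5, against 1.86, 2.43, 2.67 and 2.34% in WT replicates 1 to 4. The p52Ki libraries held both the lowest and the highest share of the 9, so the genotypes overlapped, and replicate 5 of p52Ki stood above all the others. The mean was 2.27 ± 0.789% in p52Ki and 2.32 ± 0.341% in WT (SD, n = 5 and 4), a difference of -0.053 percentage points that was smaller than either SD. Genes of the small subunit took 0.817 ± 0.338% in p52Ki and 0.769 ± 0.149% in WT, and genes of the large subunit 1.45 ± 0.453% and 1.56 ± 0.197%. The 300 annotated pseudogenes named after these genes took 0.033 ± 0.015% in p52Ki and 0.029 ± 0.0043% in WT.

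**Figure D1:**
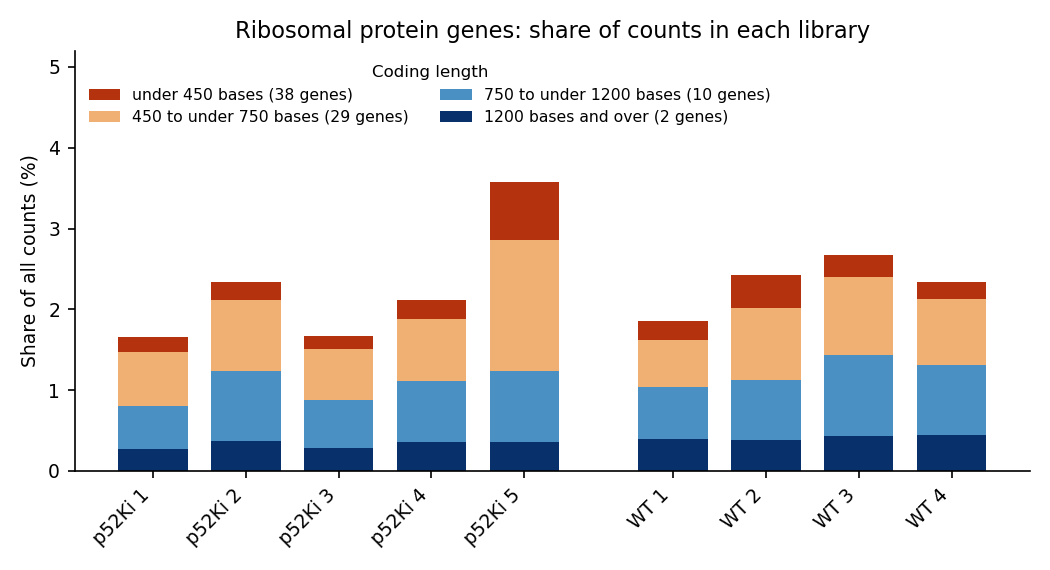
Share of all counts (vertical axis, %) taken by the ribosomal protein genes in each of 5 p52Ki and 4 WT libraries, stacked by coding length for the 79 genes with an annotated coding sequence. The bar of p52Ki replicate 5 reaches 3.58%, against 1.66 to 2.34% in the other p52Ki libraries and 1.86 to 2.67% in WT, and the genes under 450 and of 450 to under 750 coding bases are taller in it than in any other bar.

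Gene by gene, 1 of the 82 fell in p52Ki and 0 rose (edgeR quasi-likelihood test, Benjamini-Hochberg adjusted over 12849 genes, threshold 0.05). This is 1.22% of the members, against 8.53% of all genes tested (4.49% higher and 4.04% lower). Without adjustment, 2 of the 82 had p under 0.05 (Rpl4 and Rplp0), against 2750 of the 12849 genes tested. The median log2 fold change was 0.05 over the 82 genes and 0.03 over all genes tested, with a range from -0.52 (Rpl4) to 0.54 (Rpl36). 46 of the fold changes were above 0 and 36 below it. The 95% interval of the fold change lay within 2-fold in either direction for 44 of the 82 (53.7%), against 30.1% of all genes tested, and within 1.5-fold for 8 (9.76%, against 6.47%), so for most members a moderate difference was not detectable at this spread. Small-subunit genes had a median of -0.03 (n = 31) and large-subunit genes one of 0.06 (n = 42).

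**Figure D2:**
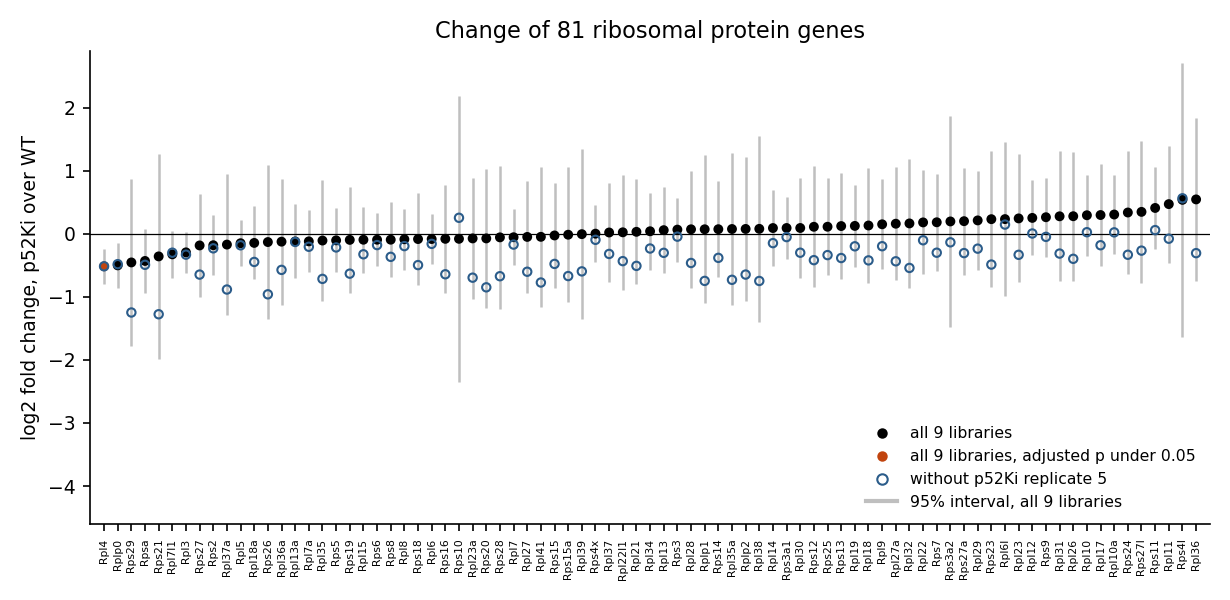
Log2 fold change of p52Ki over WT (vertical axis) for 81 of the 82 genes, ordered by its value in all 9 libraries (filled points, grey bars for the 95% interval, Rpl4 in red), with the value without p52Ki replicate 5 as open circles. The filled points run from -0.52 to 0.54 around 0, while 74 of the 81 open circles lie below 0.

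Rpl4, which encodes a large-subunit protein that lines the tunnel through which the new protein leaves, was the member that fell. The gene lies at chr9:64173375-64178666 (GRCm38, plus strand). It had 1633, 2286, 1758, 2268 and 2129.6 CPM in p52Ki replicates 1 to 5, against 2811, 2537, 3175 and 3004 CPM in WT replicates 1 to 4. Every p52Ki library lay below every WT library, which held for no other member (1 of 82, 1.22%, against 13.8% of all genes whose genotypes did not overlap and 6.53% with p52Ki below). Its log2 fold change was -0.52 ± 0.13 SE, with means of 2015 ± 301 CPM in p52Ki and 2882 ± 274 CPM in WT (SD, n = 5 and 4; edgeR adjusted p = 0.0292). Rpl4 also had the smallest spread within genotypes of the 82, an SD of 0.19 on the log2 scale, and 91.5% of the 75-base windows of its mRNA occurred in no other annotated transcript. The call did not hold without WT replicates 1, 3 or 4 or p52Ki replicates 1, 3 or 5, where edgeR adjusted p ran from 0.052 to 0.0865. Immunoglobulin counts differed between the same libraries, and with immunoglobulin and T cell receptor genes left out its log2 fold change was -0.50 (edgeR adjusted p = 0.0329). Germinal centre markers also differed between them, and their part in this result was not tested.

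Rplp0, the base of the stalk that recruits elongation factors, came next. It had 1746, 2979, 1798, 2409 and 2239.7 CPM in p52Ki, against 2808, 2747, 3683 and 3418 CPM in WT. Only p52Ki replicate 2 reached into the WT range, and the test did not call the gene (log2 fold change -0.50 ± 0.17 SE, edgeR adjusted p = 0.0889; 0.0335 without p52Ki replicate 2). Its partners in the stalk are the short acidic proteins Rplp1 and Rplp2, which carry the contact sites for those factors. Rplp1 had 33.8, 53.1, 27.5, 54.9 and 209.7 CPM in p52Ki, against 51.3, 112, 63.4 and 61.2 CPM in WT. Rplp2 had 18, 20.3, 13.6, 31.7 and 91.7 CPM in p52Ki, against 29.4, 47.9, 32.4 and 23.0 CPM in WT. In both, replicate 5 was the highest p52Ki library and replicate 2 the highest WT library, and the log2 fold changes were 0.07 ± 0.54 and 0.08 ± 0.52 SE.

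Other members of high level or known regulation gave no call. Rpl3, a large-subunit protein near the catalytic centre, had 939, 1388, 937, 1266 and 1357 CPM in p52Ki, against 1260.3, 1411, 1451 and 1659 CPM in WT (edgeR adjusted p = 0.289). Rps6, the small-subunit protein that S6 kinase phosphorylates downstream of mTOR, had 675, 939, 669, 829 and 1073 CPM in p52Ki, against 634, 815, 1171 and 955 CPM in WT (edgeR adjusted p = 0.853). Rpsa, which also has a form at the cell surface known as the laminin receptor, had 251, 574, 340.1, 479 and 529 CPM in p52Ki, against 500.5, 482, 746 and 617 CPM in WT (edgeR adjusted p = 0.322). Their genotypes overlapped.

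**Figure D3:**
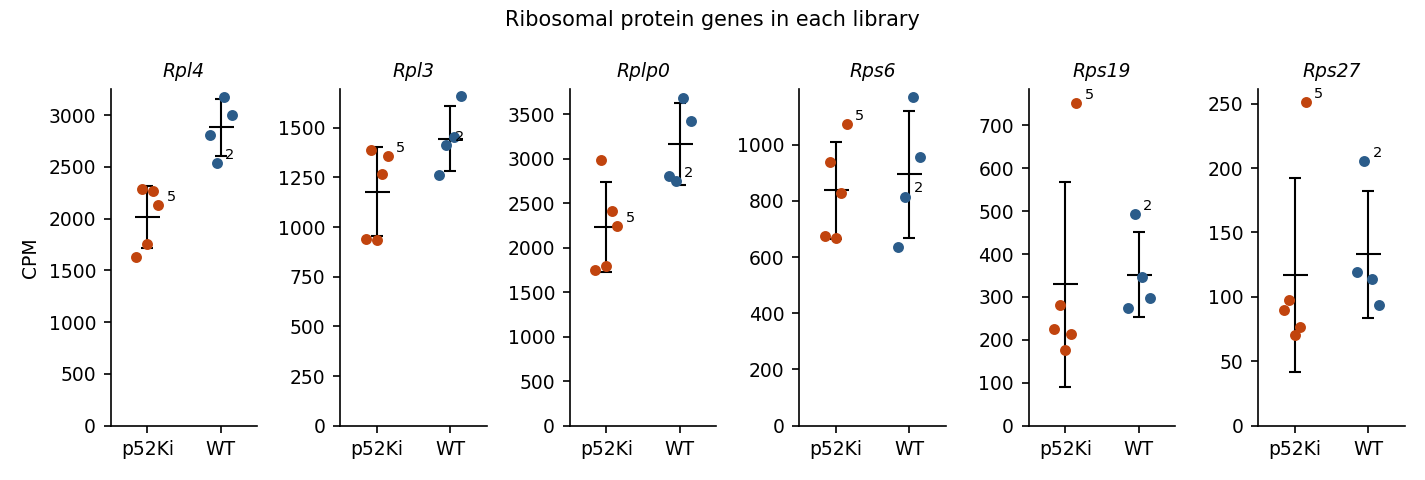
CPM (vertical axes, each from 0) of 6 ribosomal protein genes in 5 p52Ki and 4 WT libraries, ordered from long to short coding sequence for Rpl4, Rpl3, Rplp0, Rps6, Rps19 and Rps27; bars are the mean and SD, and the numerals mark p52Ki replicate 5 and WT replicate 2. In Rpl4 the genotypes do not overlap, while in Rps19 and Rps27 replicate 5 of p52Ki, at 752 and 251 CPM, lies above the 8 other libraries.

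The largest differences among ribosomal protein genes lay between libraries of the same genotype. In p52Ki replicate 5, 65 of the 82 genes had their highest CPM of all 9 libraries (79.3%), against 16.2% of all genes tested, and 73 had their highest CPM of the 5 p52Ki libraries. 60 of the 82 were at least 2-fold and 37 at least 3-fold above the mean of the 4 other p52Ki libraries. The highest such ratios were 5.63-fold for Rps21 and 5.17-fold for Rpl36, short proteins of the small and the large subunit. The ratio was at or under 1 for Rpl7l1, Rps10 and Rps4l. In 55 of the 82 genes replicate 5 lay beyond Dixon's 95% limit for 5 samples, and no other p52Ki library did so in any member. No share over all genes is given for the counts by ratio, by Dixon's limit or among the p52Ki libraries alone.

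The excess in replicate 5 was graded by the length of the coding sequence. Over the 38 members under 450 coding bases, the log2 CPM of replicate 5 minus the mean of the other p52Ki libraries had a median of 1.93, a 3.81-fold excess. The median was 1.26 over the 29 members of 450 to under 750 bases, 0.48 over the 10 members of 750 to under 1200 bases and 0.20 over Rpl3 and Rpl4, which are longer. Protein-coding genes outside the list had medians of 0.51 (n = 745), 0.03 (n = 1425), -0.02 (n = 2261) and -0.07 (n = 5816) in the same length classes. Their upper quartiles were 1.07, 0.49, 0.39 and 0.36. The rank correlation of the excess with coding length was -0.81 across the 79 members with a coding sequence and -0.14 across 10247 other coding genes, which share one library and are not independent.

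**Figure D4:**
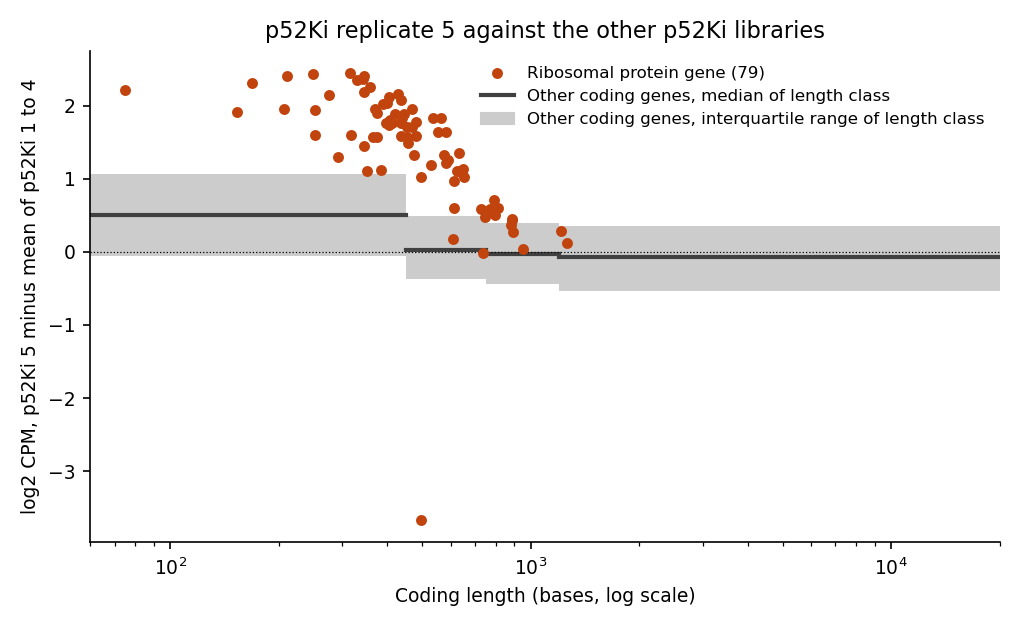
Log2 CPM of p52Ki replicate 5 minus the mean of p52Ki replicates 1 to 4 (vertical axis) against coding length in bases (log scale) for 79 ribosomal protein genes (points), with the median and interquartile range of other protein-coding genes in 4 length classes (dark line and grey band). Short ribosomal protein genes lie near 2 and the longest near 0, while Rps10, with 0 counts in replicate 5, lies far below.

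By share of all counts, the 38 members under 450 bases took 0.723% in p52Ki replicate 5, against 0.156 to 0.230% in the other p52Ki libraries and 0.213 to 0.405% in WT. The 29 members of 450 to under 750 bases took 1.62% in replicate 5, against 0.627 to 0.872% in the other p52Ki libraries and 0.583 to 0.974% in WT. The 10 members of 750 to under 1200 bases took 0.876% in replicate 5, within the range of 0.542 to 0.868% in the other p52Ki libraries and 0.652 to 0.991% in WT combined. A like order stood in WT, where replicate 2 was the highest WT library in 38 of the 38 members under 450 bases and in 0 of the 10 members of 750 to under 1200 bases, in which replicate 3 was the highest in 10. The SD within genotypes was smaller in longer members, with a rank correlation of -0.82 across the 79. Replicate 5 was also the shallowest library, with 4492160 counts, and it held the highest share of counts from other coding genes under 450 bases (6.82%, against 5.14 to 5.51% in the other p52Ki libraries and 4.56 to 5.46% in WT). The mitochondrial share of its counts was 2.35%, within the p52Ki range of 1.64 to 2.36%. The part of depth and RNA length in the excess of the short members was not tested.

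**Figure D5:**
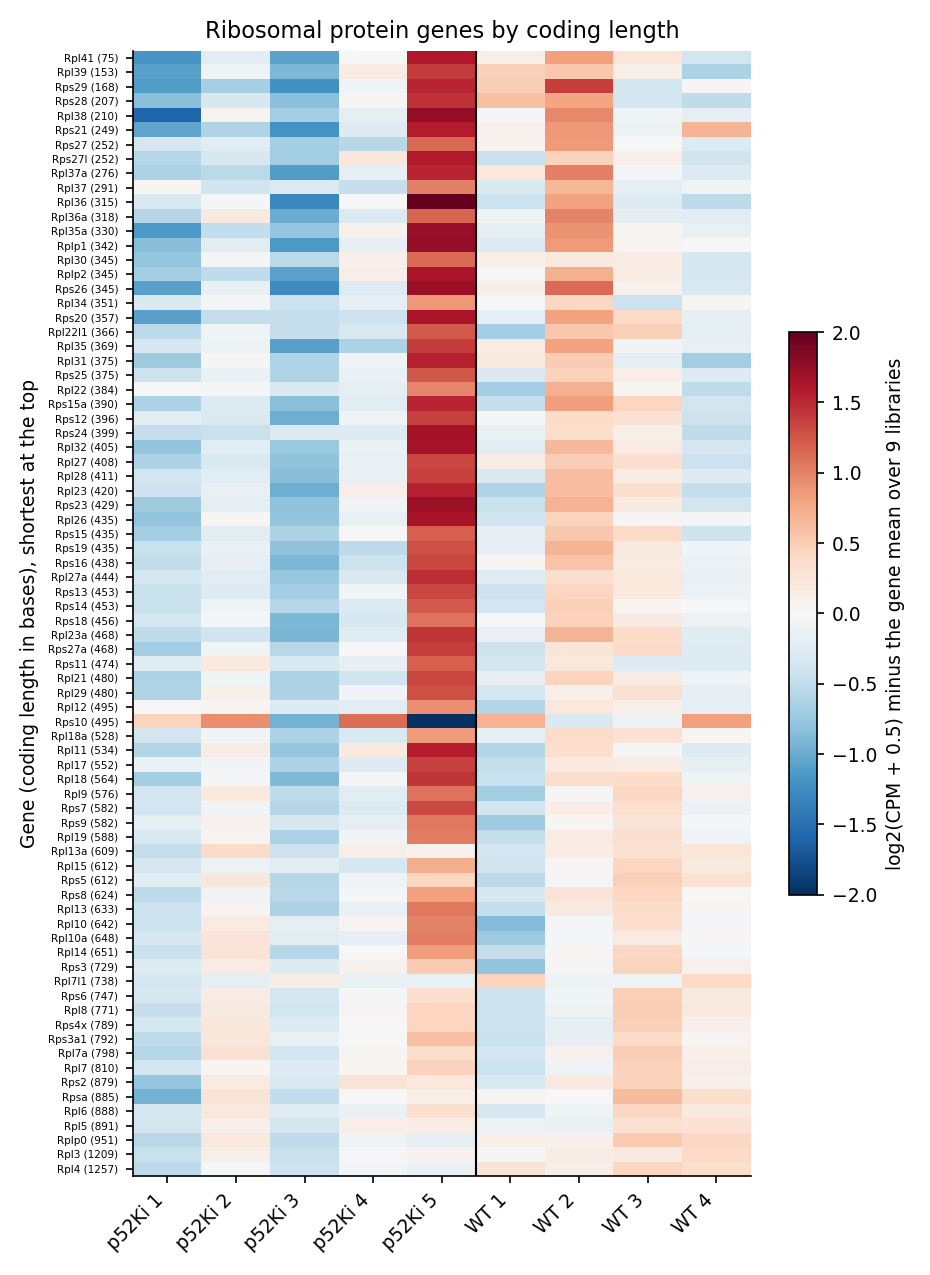
Log2(CPM + 0.5) minus each gene's mean over the 9 libraries (colour, from -2 to 2) for 78 of the 79 ribosomal protein genes with a coding sequence, in rows from 75 bases (Rpl41) to 1257 bases (Rpl4), with p52Ki libraries left of the line and WT libraries right of it. The column of p52Ki replicate 5 is red over the short genes and fades towards the long ones, and the column of WT replicate 2 is red over the short genes only.

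Replicate 5 was the highest p52Ki library in 73 of the 82 members, so leaving it out lowers their p52Ki means by construction. WT replicate 2, the highest WT library in each of the 38 members under 450 bases, was kept in this comparison. Without replicate 5, the p52Ki values shifted below WT. Of the 82 fold changes, 75 were negative and 7 positive, with a median of -0.33 (0.02 over all genes tested) and a range from -1.28 to 0.56. None passed the threshold in either direction (edgeR, adjusted over 12523 genes, of which 3.31% were higher and 2.41% lower). Unadjusted p was under 0.05 in 17 of the 82 members (edgeR). The count over all genes is not given for this fit, and with all 9 libraries it was 2750 of 12849. The 17 are therefore not read as a result about the members. In 4 members, Rpl4, Rps16, Rps20 and Rps21, each of the 4 p52Ki libraries lay below each WT library, against 7.42% of all genes, and 0 lay above, against 8.66%. Rps16, a small-subunit protein whose tail reaches the tRNA, had 134, 169.7, 101 and 141 CPM in p52Ki replicates 1 to 4 and 476 CPM in replicate 5, against 194, 281, 213 and 175 CPM in WT. Rps20, a small-subunit protein of the head, had 28.3, 43.4, 43.6 and 45.2 CPM in p52Ki replicates 1 to 4 and 189 CPM in replicate 5, against 53.3, 107, 79.8 and 53.4 CPM in WT. In Rps16 and Rps20 a single p52Ki library was above the whole WT range and the other 4 were below it. The median of the difference between p52Ki replicates 1 to 4 and WT was -0.54 on the log2 scale for members under 450 bases, -0.22 for those of 450 to under 750, -0.21 for those of 750 to under 1200 and -0.46 for the 2 of 1200 bases and over. For other coding genes of those lengths it was -0.03, 0.01, 0.00 and 0.06.

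Levels differed widely between members. Per kilobase of mRNA, the mean CPM over the 9 libraries of the 76 genes of the small subunit, large subunit and stalk ran from 6.87 for Rps10 to 1950 for Rplp0, a 284-fold range, with a median of 205. After Rplp0 came Rpl4 (1561 CPM per kb) and Rps6 (982 CPM per kb). Many of these genes have processed copies in the genome. A median of 49.2% of the 75-base windows of these mRNAs occurred in no other annotated transcript, 40 of the 76 had under 50% of such windows, and how reads with several matches were counted is not given in the sources. The rank correlation of the share of such windows was -0.11 with the level per kilobase and -0.05 with the log2 fold change (n = 76 genes). Rps27, a small-subunit protein with a zinc finger, had 1.48% of such windows and shared the others mainly with its retrotransposed copy Rps27rt. Rps27 had 89.4, 97.9, 70.6, 76.8 and 251 CPM in p52Ki, against 119, 205, 114 and 93.6 CPM in WT, while Rps27rt had 4.94, 7.58, 5.98, 7.66 and 24.98 CPM in p52Ki and 8.93, 17.4, 8.96 and 5.31 CPM in WT. The copy had its highest values in the same libraries as the parent gene.

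At the low end, Rps10, a small-subunit protein of the head, had 3.77, 5.47, 1.13 and 6.28 CPM in p52Ki replicates 1 to 4 and 0 counts in replicate 5, where 3 counts would be 0.652 CPM, against 4.59, 2.08, 2.42 and 5.04 CPM in WT. It had the largest SD within genotypes of the 82, 1.45 on the log2 scale. Its exons are shared on the same strand with an annotated readthrough gene, RPS10-NUDT3, which was at 0 counts in every library. Rpl24, 1 of the 7 names that did not pass the filter, had 54 counts over the p52Ki libraries and 54 over WT, and shares exons with Gm28037, which was also at 0 throughout. The levels of Rps10 and Rpl24 are therefore uncertain. The other names under the filter were Rpl3l with 27 and 0 counts in p52Ki and WT, Rps3a3 with 48 and 21, Rpl39l with 0 and 19, Rpl32l with 4 and 0, Rps12l1 with 1 and 1, and Rpl10l with 0 and 0.

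Several ribosomal proteins have a paralog that can take their place, and neither partner was called in the 3 pairs with both genes above the filter. Rpl22, a large-subunit protein that T cells need to develop in mice, had 29.3, 28.7, 24.1, 25.7 and 58.9 CPM in p52Ki, against 18.2, 48.4, 30.4 and 20.6 CPM in WT. Its paralog Rpl22l1 had 24.4, 33.3, 25.7, 28.7 and 83.4 CPM in p52Ki, against 21.9, 51.6, 49.3 and 30.8 CPM in WT. Both were highest in p52Ki replicate 5. At the starts shown above, Rpl22l1 carries the pyrimidine run and Rpl22 does not, and the part of the run in these levels was not tested. For Rpl22 only the first of 2 listed promoter windows was searched. Per kilobase, the ratio of Rpl22l1 to Rpl22 ran from 0.714 to 1.22 in p52Ki and from 0.915 to 1.39 in WT. Rpl7l1, a protein of ribosome assembly related to Rpl7, had 129, 144, 181, 147 and 148 CPM in p52Ki, against 224, 154, 156 and 217 CPM in WT (edgeR adjusted p = 0.3), and it did not share the excess of replicate 5. Rps27l, which p53 induces in human cells, averaged 21.2 ± 17.3 CPM in p52Ki and 16.6 ± 5.30 CPM in WT, and its ratio to Rps27 per kilobase was between 0.0864 and 0.178 in p52Ki and between 0.0707 and 0.112 in WT. Rps4x, whose gene on chromosome X was the canonical partner taken for the pseudogene-type Rps4l, averaged 515 ± 119 CPM in p52Ki and 515 ± 139 CPM in WT, and Rps4l averaged 5.46 ± 1.73 and 3.75 ± 3.39 CPM.

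A list was taken of 9 members that are mutated in human Diamond-Blackfan anaemia, an inherited failure of red cell production. The list may leave out other such members. These 9 gave 0 calls in either direction. Their log2 fold changes ran from -0.15 to 0.47 with a median of 0.07. Of all genes tested, 8.53% were called. Rps19, a small-subunit assembly protein and the gene most often mutated in that disease, had 225, 281, 176, 215 and 752 CPM in p52Ki, against 273, 492, 347 and 297 CPM in WT (edgeR adjusted p = 0.929). Rpl11, which with Rpl5 binds Mdm2 and so stabilises p53 when ribosome assembly fails, had 82.3, 137, 72.2, 141 and 370.0 CPM in p52Ki, against 82.4, 156, 120.4 and 104 CPM in WT. Its partner Rpl5, a longer gene, had 355, 494, 357, 502 and 507 CPM in p52Ki, against 422, 418, 569 and 558 CPM in WT. Replicate 5 was 3.42-fold the mean of the other p52Ki libraries for Rpl11 and 1.19-fold for Rpl5. Of the 10 p53 target genes tested, 0 were called in either direction. Lists of 9 or 10 genes would hold few calls at the share of all genes.

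Split by promoter letters, the fold changes had close medians. The median log2 fold change was 0.01 over the 24 genes with CCGGAAG and 0.04 over the 35 without it. It was 0.05 over the 34 genes with the pyrimidine run and 0.00 over the 25 without it. The 4 genes with NF-κB letters had values from -0.10 to 0.24.

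Genes for ribosome-bound proteins under other names were not called either. Fau, which encodes the small-subunit protein eS30 fused to a ubiquitin-like protein, had 134, 172, 120.1, 160.1 and 623 CPM in p52Ki, against 179.6, 283, 260.1 and 168 CPM in WT. Rack1, a scaffold protein on the head of the small subunit, averaged 413 ± 95.6 CPM in p52Ki and 512 ± 42.5 CPM in WT (edgeR adjusted p = 0.314), and its longer mRNA was not raised in replicate 5, at 388 CPM. Rps27a, which carries ubiquitin, averaged 166 ± 116 CPM in p52Ki and 145 ± 37.9 CPM in WT, with 370.0 CPM in replicate 5. Rpl36al, the paralog of Rpl36a, was low, at 4.51 ± 3.43 CPM in p52Ki and 2.73 ± 0.71 CPM in WT. Of these genes, Fau, Rack1 and Rpl36al stand outside the naming rule.

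Genes that act with the ribosome were tested in the same fit, with 4.04% of all genes lower as the background. Of 25 translation initiation factors, 7 fell and 0 rose, and the median log2 fold change was -0.37. Eif3a, the scaffold of the eIF3 complex that holds the small subunit, had 269, 255, 245, 328 and 289 CPM in p52Ki, against 419.9, 439, 399.6 and 431 CPM in WT, so that the genotypes were apart (log2 fold change -0.61 ± 0.12 SE, edgeR adjusted p = 0.0135). Eif4h, a helper of the helicase eIF4A, averaged 324 ± 30.6 CPM in p52Ki and 463 ± 29.3 CPM in WT (edgeR adjusted p = 0.0205). Eif2s1, the subunit of eIF2 on which stress kinases act, averaged 179 ± 9.06 CPM in p52Ki and 270.0 ± 54.9 CPM in WT (edgeR adjusted p = 0.0329). Eif4e, Eif4g2, Eif5 and Eif6 also fell. Without p52Ki replicate 5, 2 of the 25 fell, and leaving out each library in turn left between 1 and 4. Over those 9 fits the edgeR adjusted p reached 0.0418 for Eif3a, 0.0617 for Eif4h and 0.114 for Eif2s1.

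Among 14 other genes whose mRNAs carry the pyrimidine tract, 1 fell and 0 rose. Eef2, the factor that moves the ribosome along the mRNA, had 1279, 1575, 1261, 1494 and 1062 CPM in p52Ki, against 2292, 2144, 1789.8 and 2008 CPM in WT, with no overlap (log2 fold change -0.63 ± 0.13 SE, edgeR adjusted p = 0.0152). Eef1a1, which brings the tRNAs, averaged 3746 ± 731 CPM in p52Ki and 5191 ± 405 CPM in WT and did not pass (edgeR adjusted p = 0.0694). Of 20 genes of the mTOR and LARP1 pathway, 1 fell, the kinase gene Akt1 (71.0 ± 18.9 CPM in p52Ki and 132 ± 24.0 CPM in WT, edgeR adjusted p = 0.026). Of 7 host genes of small nucleolar RNAs, 1 fell, Snhg5 (43.4 ± 7.43 CPM in p52Ki and 83.1 ± 22.9 CPM in WT, edgeR adjusted p = 0.0317). Neither call held throughout when each library was left out in turn, with edgeR adjusted p up to 0.0778 for Akt1 and 0.0977 for Snhg5, and 0 of the 20 pathway genes fell without p52Ki replicate 5. None of 5 chaperones of ribosomal proteins and none of 4 ribosome rescue factors was called. Whether these lists differ from the ribosomal protein genes in their change was not tested.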

How the data were processed

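RNA of mouse spleen B cells was measured in 9 libraries. Per the labels' protocols, cDNA was made by SMART-Seq v2, which copies and amplifies full-length polyadenylated RNA, and cut with the Nextera XT kit. Strand is not marked and reads carry no molecular identifiers, so floors cover counting error only. Intervals of fold changes come from the fit and include the spread between libraries. The submitters' processing notes name HISAT2 2.1.0, SAMtools 1.8, featureCounts of Subread 1.6.2 and the build GRCm38. Neither the annotation release nor the settings for strand and for reads with several matches were given in the sources used here. Per the count table, the authors deposited whole-number counts per gene, with no normalization, and log2 CPM values, which equalled edgeR's log CPM of those counts (TMM factors, prior count 2) to within 4.97e-14.

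The counts were tested in R 4.3.3 with edgeR 4.0.16 (filterByExpr, TMM, robust quasi-likelihood F test, all 9 libraries, no covariate), adjusted by Benjamini-Hochberg over the 12849 genes kept, with a threshold of 0.05. The procedure was tested on simulated data. SE is the absolute log2 fold change divided by the root of F. CPM uses TMM-scaled library sizes, and CPM per kb uses the shortest principal mRNA of GENCODE M21, whose identifiers matched all 55536 deposited ones with the deposited name. Window uniqueness, coding length and exon overlap come from the same annotation, and 19 members share exon bases with a gene on the other strand, whose reads cannot be told apart. Alternatives used DESeq2 1.42.0, limma 3.58.1, other scalings and filters, length and GC offsets and libraries left out. Named genes were called members, members of highest level, paralog pairs, Diamond-Blackfan genes, stalk and ubiquitin-fused genes, members of largest spread, and up to 3 called genes of each related list; Rps16, Rps20, Rps21, Rps27rt, Rpl36, Rpl6, Rpl23, Rps23, Rpl24, Eif4e, Eif4g2, Eif5, Eif6 and Eef1a1 were chosen after their values were seen. The members and lists were chosen with earlier results of these data known. Some genes under this rule are not reported here. The biological coefficient of variation was 0.567.

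The labels stated no pairing, and replicate numbers were not taken as pairs. The correlations of deviations from the genotype means of same-numbered p52Ki and WT libraries were -0.042, -0.017, -0.013 and -0.009. Libraries of unlike number also correlated near 0, so these values cannot exclude a pairing.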

Additional observations from a re-analysis of the deposited data

Results flagged for a closer look

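In groups of 4 or 5 libraries, the gap between the highest or lowest library and its neighbour was divided by the range of the group and set against Dixon's 95% limit. Of 81 groups of named genes and shares, 20 passed, where chance alone flags about 1 in 20 (5%). In 17 of the 20 the library was p52Ki replicate 5. Rps10, Rps4l and Rpl38 were named for their large spread within genotypes in these same data, so the chance rate does not hold for them. The ratio was 0.849 for Rpl22, 0.849 for Rps27, 0.849 for Rpl22l1, 0.768 for Rps27l and 0.944 for Rpl3l in p52Ki. Among the Diamond-Blackfan genes in p52Ki it was 0.817 for Rps19, 0.768 for Rpl11, 0.954 for Rps24, 0.8286 for Rps26, 0.792 for Rpl35a and 0.845 for Rps7. It was 0.850 for Rplp1, 0.768 for Rplp2, 0.809 for Rps27a, 0.897 for Fau and 0.770 for Rpl38, and 0.719 for the share of counts of the small-subunit genes, which was 1.39% in that library. In the other 3 the library was WT replicate 2, with ratios of 0.939 for Rpl36a, 0.844 for Rpl35a and 0.902 for Rpl38. These genes share their libraries, so the ratios are not independent of each other.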

How the results depend on the processing

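No ribosomal protein gene was called higher under any alternative run. The count called lower, 1 with all libraries, was 0 with library totals as the only scaling, 0 with libraries 1 to 4 of each genotype, and 0 to 2 when each library was left out in turn. It was 2 with DESeq2 and 2 with length and GC offsets, which both added Rplp0 (adjusted p 0.0419 and 0.0384). With library totals alone Rpl4 had an edgeR adjusted p of 0.0524. With the replicate number as a block (libraries 1 to 4), 0 members were called, the median log2 fold change was -0.32, Rpl4 had an edgeR adjusted p of 0.132, and 0 initiation factors were called lower; none of the 4 WT libraries correlated best with the p52Ki library of its own number, so the numbers were not taken as pairs. The median log2 fold change of the members changed sign with the setting: -0.23 with limma-voom weights, -0.09 with limma-trend, -0.17 with length and GC offsets, -0.33 with libraries 1 to 4, and -0.33 to 0.19 with each library left out. The difference in share of counts ran from -0.38 to 0.10 percentage points with each library left out. The 7 initiation factors called lower became 4 with DESeq2 size factors, 2 with library totals, 1 without a filter, 2 with libraries 1 to 4 without the block, and 1 to 4 with each library left out. The alternatives with libraries 1 to 4 without a block and for the related lists were chosen after seeing the data. The cause of these moves was not tested, apart from fewer libraries or more genes tested by construction. Members under 10 CPM rest on few counts.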
